A study of Mus musculus with 20 samples.

Results

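The genes that encode the protein parts of the cytosolic ribosome were followed in hemi-brains of aged female mice that express human APOE. Members were taken by symbol alone, as every gene named Rpl or Rps followed by a number, a stalk suffix or the letter a, with pseudogene symbols and the S6 kinases left out. The rule gave 89 of 55291 genes in the count table, 53 of the large subunit and 36 of the small subunit. Of these, 86 passed the filter on low counts and were tested, and Rpl10l, Rpl39l and Rps12l1, with at most 7 reads in any library, were not. A total of 20 female mice aged 18 months (18 MO) on a C57Bl/6 background were sequenced, 5 in each of 4 groups labelled APOE2, APOE4D, APOE4 and APOE3. Every group is homozygous for a human allele at the Apoe locus, driven by the promoter of the mouse, and none carries mouse Apoe itself. The labels give the APOE4D mice the genotype APOE4 and do not say what the D stands for. Each library was made from RNA of a whole left hemi-brain, so that a value is a mixture over all cell types.

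The ribosome reads mRNA on its small subunit and joins amino acids on its large subunit, and each subunit is a scaffold of ribosomal RNA covered by proteins that are, with few exceptions, encoded by a single active gene each. The mRNAs of these genes are known to start with a run of pyrimidines, the 5′ terminal oligopyrimidine tract, through which signalling by mTOR sets their translation and stability together. In neurons they are among the mRNAs found in dendrites and axons as well as in the cell body.

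The starts of some of these genes are shown because such tracts are known for them. Of the 89 members, 64 had a RefSeq promoter entry on GRCm38.p6, the build of the deposited counts. An unbroken run of at least 10 pyrimidines on the coding strand, within 20 bases on either side of the annotated start, was present in 31.6% of 76 member entries and in 7.39% of all 32851 promoter entries. On the opposite strand the shares were 1.32% of member entries and 7.83% of all entries. In the windows printed here, which run from 30 bases before to 25 bases after the RefSeq start, capitals mark the longest pyrimidine run near the start. Rps2, Rps15 and Rps21 are among the leading genes of the results below and have runs of only 6, 7 and 7 bases, and the entry of Rps2 lies within the span of the gene given there. The other 7 genes were picked for a run of at least 10, and of these the first 4 fell in APOE4 against APOE3 and the last 3 did not pass that test.
Rps2, chr17:24720033-24720087, plus strand: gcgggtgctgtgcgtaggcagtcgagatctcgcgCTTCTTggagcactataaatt
Rps15, chr10:80292401-80292455, plus strand: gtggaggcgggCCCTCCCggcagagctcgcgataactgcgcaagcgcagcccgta
Rps21, chr2:180257349-180257403, plus strand: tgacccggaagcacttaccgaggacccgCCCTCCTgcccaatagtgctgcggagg
Rpl27a, chr7:109519165-109519219, plus strand: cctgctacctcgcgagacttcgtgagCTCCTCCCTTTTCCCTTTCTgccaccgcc
Rpl35, chr2:39005107-39005161, minus strand: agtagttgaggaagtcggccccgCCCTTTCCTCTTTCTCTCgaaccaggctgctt
Rplp2, chr7:141447621-141447675, plus strand: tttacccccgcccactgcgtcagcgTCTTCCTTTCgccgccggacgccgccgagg
Rpl13, chr8:123102320-123102374, plus strand: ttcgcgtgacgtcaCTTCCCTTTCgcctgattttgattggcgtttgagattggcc
Rpl15, chr14:18270962-18271016, minus strand: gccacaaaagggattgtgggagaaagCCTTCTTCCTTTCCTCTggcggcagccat
Rpl4, chr9:64173357-64173411, plus strand: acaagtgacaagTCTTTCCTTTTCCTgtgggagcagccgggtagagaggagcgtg
Rps15a, chr7:118116123-118116177, minus strand: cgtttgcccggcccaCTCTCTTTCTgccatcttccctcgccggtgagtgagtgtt
Runs of this kind stood both in genes that moved and in genes that did not. They were found in 29.8% of 47 entries of members that fell in APOE4 and in 37.5% of 24 entries of members over 1 CPM (reads relative to library size scaled by TMM) that did not pass. The letters CTTTCC, part of such runs in several windows, stood on either strand of the full 300 bases in 48.7% of member entries and 26.6% of all entries. The letters CCGGAAG, the binding motif of ETS factors, stood in 35.5% of member entries and 8.86% of all entries. All are matches of letters and no binding was measured.

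Libraries held 32404258 to 51960932 counted reads, with the lowest totals in APOE4D (32404258 to 37947330) and the highest in APOE3 (43051666 to 51960932). The APOE3 library F61N had 48 reads of Xist, an RNA of the inactive X chromosome in females, against 12151 to 24959 in the other 19 libraries, although it is labelled female. Mouse IDs that begin with FH occurred in 2 APOE2, 3 APOE4D and 2 APOE4 mice but in no APOE3 mouse. Markers of neurons, astrocytes, oligodendrocytes, microglia, endothelium and choroid plexus (5 genes each) were all above 1 CPM in every library. The summed level of each list overlapped between all groups, and 4 of these 30 genes, Tubb3, Aldh1l1, C1qa and Ly6c1, were lower in APOE4 against APOE3. Red cell transcripts were the exception, because their summed level was 73.0 to 121 CPM in APOE4 and 149 to 401 in APOE3, and all 5 of them fell in APOE4, with a median log2 fold change of -1.38. The APOE2 and APOE4D libraries (85.5 to 172 and 74 to 219) overlapped APOE3. Among 5 nuclear noncoding RNAs Malat1 was higher in APOE4 (log2 fold change 0.49), as was Kcnq1ot1. The part of these transcripts in the results below was not tested.

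Together the 89 members held 1.24% ± 0.05 of counts in APOE2, 1.21% ± 0.061 in APOE4D, 1.17% ± 0.0342 in APOE4 and 1.36% ± 0.103 in APOE3 (SD, n = 5 each). The 5 APOE4 libraries lay between 1.12% and 1.21%, all below the 5 APOE3 libraries, which lay between 1.22% and 1.51%. The APOE2 libraries (1.17% to 1.31%) and the APOE4D libraries (1.13% to 1.29%) overlapped APOE3. Within APOE3 the spread was wide, with F39N highest of the 20 libraries at 1.51% and F61N lowest of its group at 1.22%. The APOE4 mean was 0.861 of the APOE3 mean, 0.84 without F61N and 0.887 without F39N. A lower share in bulk tissue can come from fewer cells rich in these mRNAs or from less of them per cell, and these cannot be told apart here.

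Both subunits had a lower share in APOE4. Large subunit genes held 0.669% ± 0.0178 of counts in APOE4 and 0.767% ± 0.0576 in APOE3, and small subunit genes held 0.501% ± 0.0148 in APOE4 and 0.588% ± 0.0467 in APOE3. The ratio of large to small subunit reads was 1.28 to 1.313 in APOE2, 1.317 to 1.352 in APOE4D, 1.333 to 1.343 in APOE4 and 1.295 to 1.309 in APOE3. Both APOE4 groups therefore lay wholly above both other groups, which overlapped each other. Without the 5 genes with most reads of each subunit, the ratio was 1.391 to 1.398 in APOE4 and 1.372 to 1.382 in APOE3, still with no overlap, whereas APOE2 (1.359 to 1.395) then overlapped APOE4. The median log2 deviation of large minus small subunit genes, which weights each gene alike, did overlap, at 0 to 0.01 in APOE4 and -0.03 to 0.02 in APOE3. These ratios are given as a description, with no test.

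**Figure D1:**
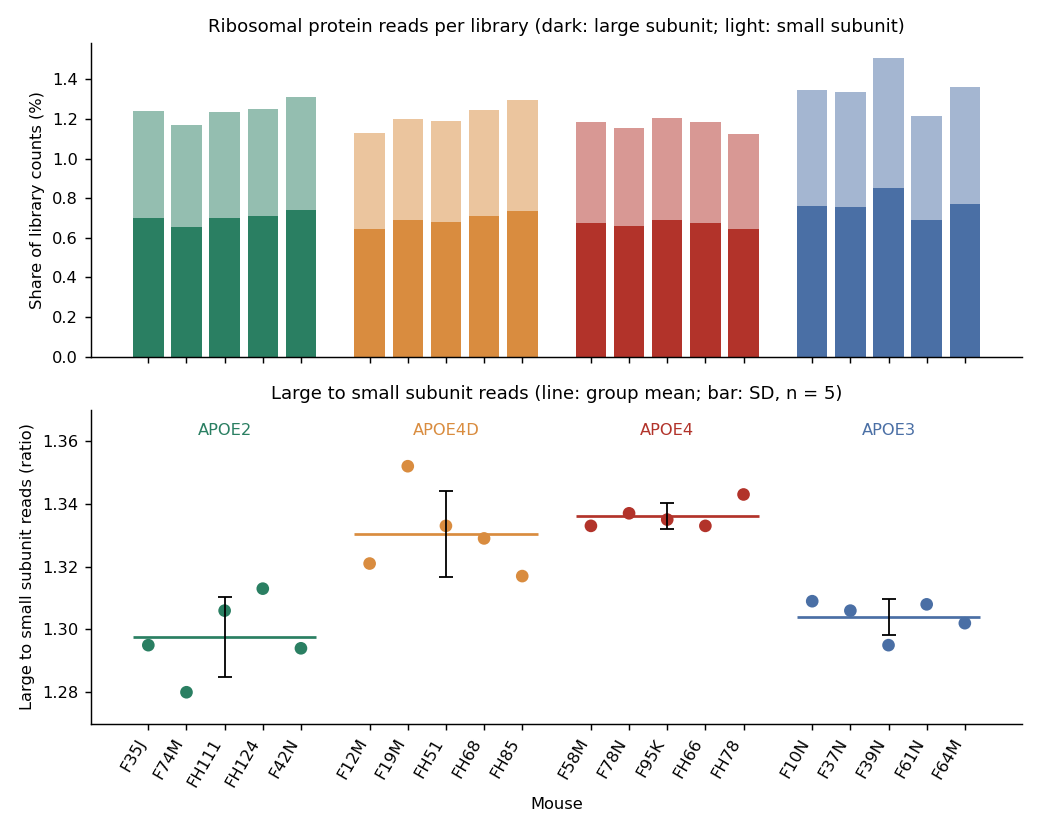
The upper panel plots, for each of the 20 mice, the percent of library counts in large subunit (dark) and small subunit (light) ribosomal protein genes, and the lower panel the ratio of large to small subunit reads with the group mean and SD (n = 5). All APOE4 bars, at 1.12% to 1.21%, end below the lowest APOE3 bar at 1.22%, and the ratio lies at 1.317 or above in APOE4D and APOE4 and at 1.313 or below in APOE2 and APOE3.

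Levels differed widely between members. By mean count the highest were Rpl4, Rps3, Rplp1, Rpl8 and Rps14, at 537, 391, 376, 337 and 331 CPM. Per kilobase of coding sequence the highest was Rpl41, with the shortest annotated coding sequence of the members, at 2250 CPM, and the order among these 5 changed, with Rplp1 at 1100, Rps14 at 730, Rps3 at 536, Rpl8 at 437 and Rpl4 at 427 CPM. This order depends on the length used, and none per transcript length is given. Rpl41 has 138 coding bases in a transcript of 560 bases, and Rplp1 has 342 in 547. In all, 81 members had at least 100 reads in every library. The lowest tested members were copies and paralogs, Rpl6l, Rpl3l, Rps3a3, Rps3a2 and Rpl32l, with mean levels of 0.287, 0.414, 0.43, 0.444 and 0.559 CPM. Rps10 and Rpl24, both core proteins, averaged only 5.41 and 6.78 CPM. The 4 pseudogenes of Rps10 in the table together held 57.4% as much signal as Rps10 itself, so that its level is uncertain.

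APOE4 against APOE3 asks how the allele that raises the risk of Alzheimer's disease differs from the risk-neutral allele at this age. A total of 52 of 86 members fell in APOE4 and 0 rose, beside 10.2% of all 21022 genes tested that were lower and 10.8% that were higher (edgeR quasi-likelihood test, Benjamini-Hochberg adjusted p under 0.05). At an unadjusted p under 0.05, 64 members were lower and 1 was higher, beside 16.9% and 16.8% of all genes. The members that fell were 29 of 51 large and 23 of 35 small subunit genes. The median log2 fold change was -0.20 over the members and -0.01 over all genes, and 79 of 86 members were below 0. Groups did not overlap in 32 members, all lower in APOE4, against 5.86% of all genes that were apart and lower and 5.58% that were apart and higher.

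**Figure D2:**
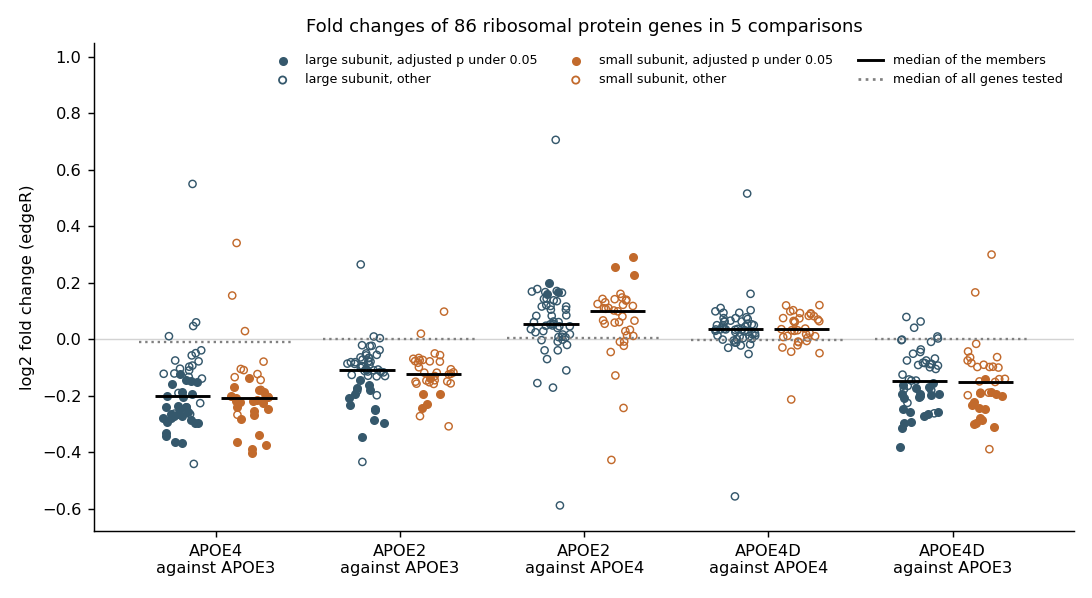
Each point is the log2 fold change of 1 of 86 ribosomal protein genes in 1 of 5 comparisons, large subunit left and small subunit right, filled where the adjusted p was under 0.05, with the median of the members of each subunit (black) and of all genes tested (dotted). In APOE4 against APOE3 the medians lie at -0.20 for the large and -0.21 for the small subunit, and in APOE4D against APOE4 no point is filled.

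Rps2 and Rps20 gave the smallest p-values. Rps2, a protein at the entry of the mRNA channel on chromosome 17 (24718121 to 24721927 on GRCm38), measured 235, 234, 244, 250 and 237 CPM in APOE4, against 328, 277, 317, 295 and 296 CPM in APOE3. Its log2 fold change was -0.34 (SE 0.044, edgeR adjusted p = 1.27e-05). Every APOE4 library was lower than every APOE3 library, including F61N at 295 CPM. Rps20, a protein of the head of the small subunit, measured 111, 114, 121, 121 and 113 CPM in APOE4, against 169, 138, 160, 147 and 143 CPM in APOE3. It fell by 0.39 on the log2 scale (SE 0.05), with the groups again apart.

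Rps15, also of the head, and Rps21 fell by similar amounts. Rps15 measured 294, 294, 271, 273 and 259 CPM in APOE4, against 356, 369, 427, 319 and 364 CPM in APOE3 (log2 fold change -0.40, SE 0.056, edgeR adjusted p = 5.2e-05). The APOE3 value nearest to APOE4 was the 319 CPM of F61N. Rps21, a small protein on the solvent side of the small subunit, had a mean of 213 ± 7.82 CPM in APOE4, against 275 ± 30.6 CPM in APOE3 (SD over 5 mice; log2 fold change -0.37).

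Among large subunit genes Rpl36, Rpl8, Rpl35, Rpl13, Rplp2 and Rpl27a led. Rpl36 measured 105, 109, 104, 110 and 105 CPM in APOE4, against 152, 127, 144, 126 and 126 CPM in APOE3 (log2 fold change -0.34, SE 0.051, edgeR adjusted p = 5.99e-05). All 5 APOE4 mice lay below all 5 APOE3 mice. Rpl8, which lies close to the catalytic centre, measured 310, 313, 300, 315 and 302 CPM in APOE4, against 399, 357, 418, 353 and 362 CPM in APOE3 (log2 fold change -0.30). Rpl13 averaged 185 ± 8.05 CPM in APOE4, against 233 ± 24.6 CPM in APOE3, where F10N was highest at 274 CPM. Rpl35 averaged 66.7 ± 1.67 CPM in APOE4 mice and 81.2 ± 4.73 CPM in APOE3 mice. Rpl27a averaged 105 ± 4.23 CPM in APOE4 mice and 127 ± 8.46 CPM in APOE3 mice, with no overlap in either gene.

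**Figure D3:**
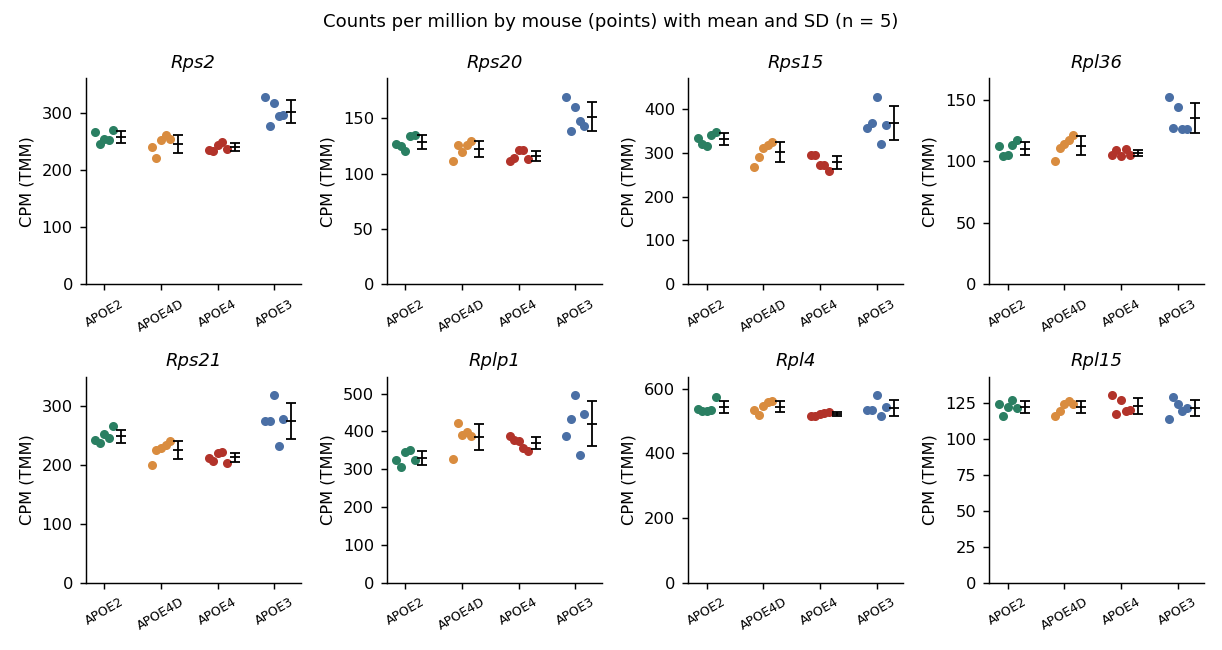
Points are CPM in each mouse for 8 ribosomal protein genes, with the mean and SD of each group (n = 5), on axes that start at 0. Rps2, Rps20, Rps15, Rpl36 and Rps21 lie lower in APOE4 than in APOE3, Rplp1 has its lowest mean in APOE2 (330 CPM), Rpl15 overlaps between all groups, and Rpl4 overlaps between all but APOE2 and APOE4.

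With any 1 library left out, between 45 and 60 members were lower, the fewest without FH78 and the most without F61N, where Rpl3l was also called higher. Without the FH mice, which leaves 3 APOE4 mice, 30 members fell, 29 of them among the 52. Over all 21149 genes tested in that fit, 780 were lower and 623 higher.

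The fall was not shared by every core gene. Rpl4, which lines the peptide tunnel, measured 515, 514, 523, 524 and 529 CPM in APOE4, against 533, 535, 579, 514 and 542 CPM in APOE3 (log2 fold change -0.06, SE 0.036, edgeR adjusted p = 0.292). Rpl15 averaged 123 ± 5.74 CPM in APOE4, against 121 ± 5.66 CPM in APOE3, and Rps15a 159 ± 5.38 CPM in APOE4 mice and 155 ± 5.55 CPM in APOE3 mice. These groups overlapped, with log2 fold changes of 0.01 (SE 0.042) and 0.03 (SE 0.038). Rpl7 (log2 fold change -0.05, SE 0.045), Rpl23 (-0.04) and Rpl5 (0.06) likewise did not pass. Of 7 members above 0 none passed.

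**Figure D4:**
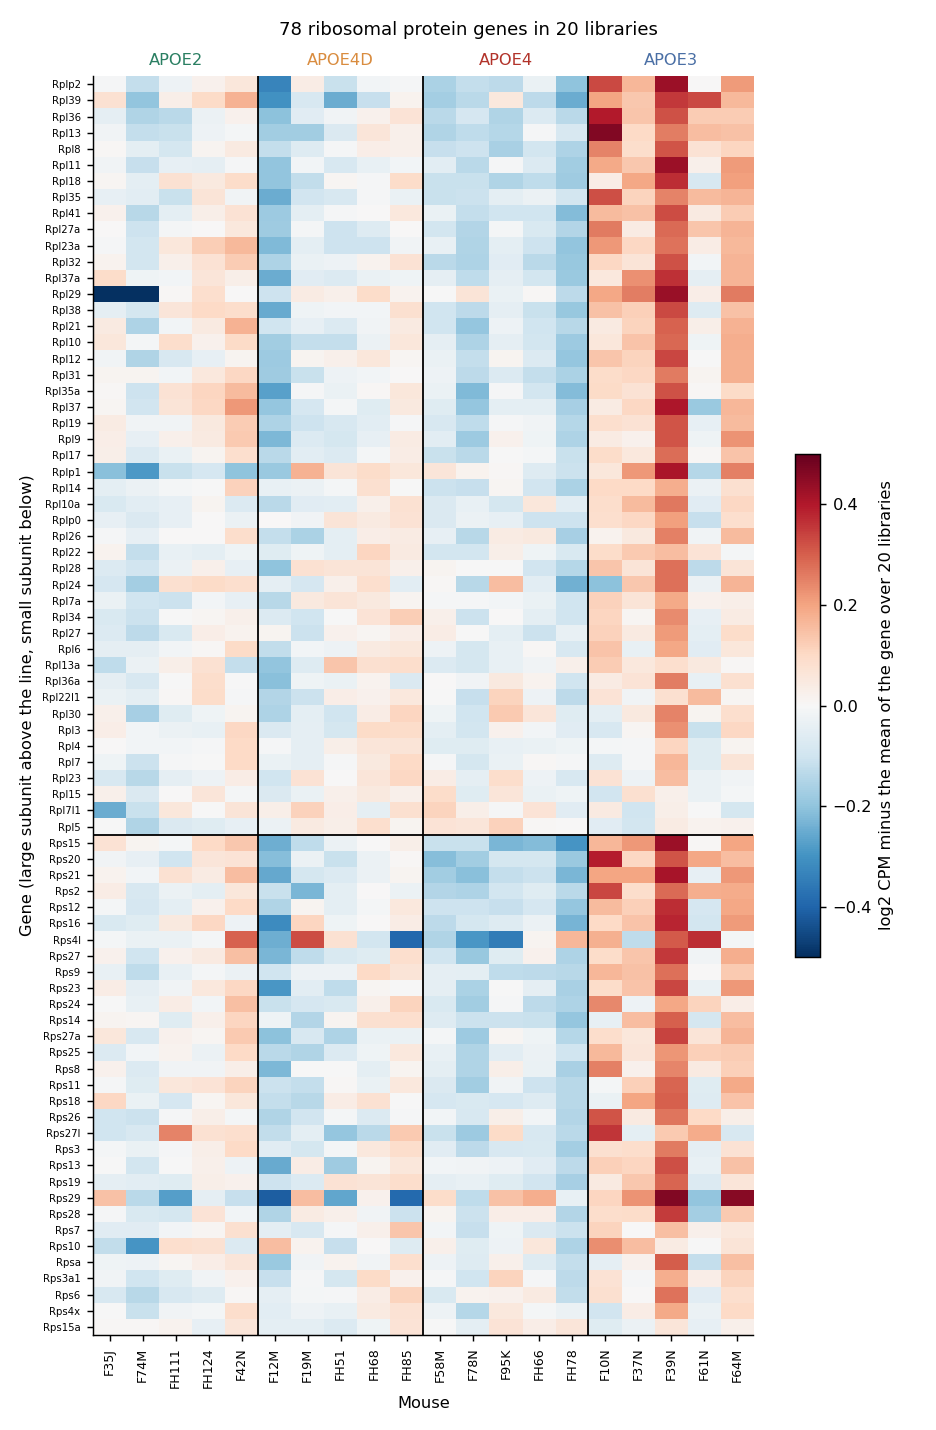
Colour gives log2 CPM of each of 78 ribosomal protein genes over 1 CPM in each mouse minus the mean of that gene over 20 mice, with the scale ending at 0.5 either way and genes ordered within subunit by fold change in APOE4 against APOE3. The APOE3 column F39N lies above the mean in 83 of all 86 tested members and the APOE4D column F12M in only 6.

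Shorter coding sequences went with larger falls, in these genes and in others. Across 82 members with a coding length the log2 fold change in APOE4 against APOE3 correlated with log2 coding length at Pearson's r = 0.43 (Spearman's rho = 0.35), a description over genes that share libraries. Among other genes over 5 CPM the median log2 fold change was -0.14 for 163 genes with up to 300 coding bases, -0.11 for 454 genes up to 450 bases and 0.05 for 1765 genes over 3000 bases. Members in the same 2 shortest classes had medians of -0.26 (9 genes) and -0.23 (28 genes). After a smooth trend with transcript length and GC content was taken out of each library, 31 members fell and the median was -0.10. Of all 21022 genes tested, 1023 were then lower, where 2149 were lower without this step. With coding length in place of transcript length, an alternative chosen after seeing the data, 27 members fell and the median was -0.09, beside 964 of all genes lower. Rps2, Rps20 and Rps15 passed under both, while Rpl35 did not (adjusted p = 0.098 and 0.206).

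**Figure D5:**
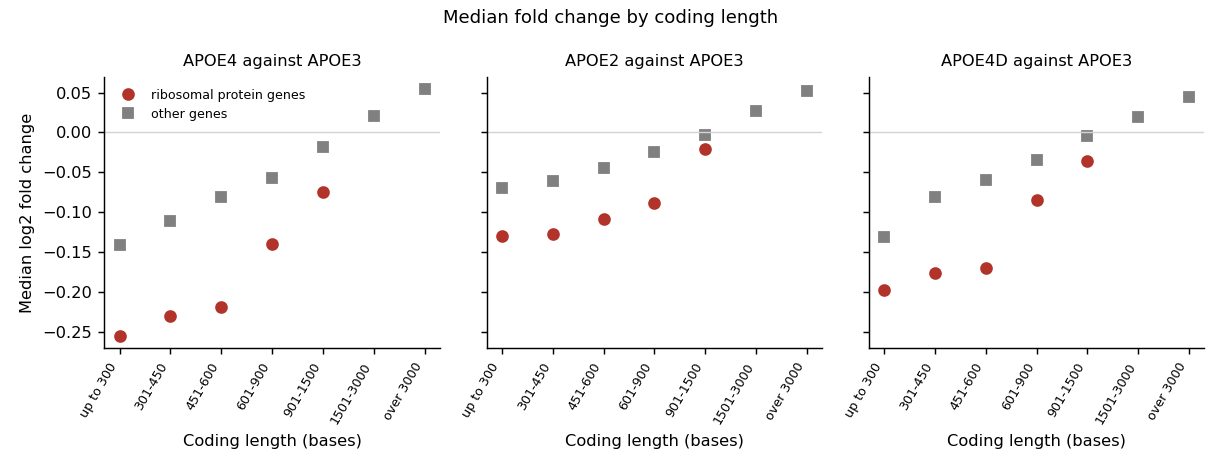
Median log2 fold change is plotted by class of coding length in bases for ribosomal protein genes (red) and for other genes over 5 CPM (grey) in 3 comparisons with APOE3. In APOE4 against APOE3 the medians of the members run from -0.26 to -0.08 and those of other genes from -0.14 to 0.05, and the members lie lower in each class that holds any.

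By position in the ribosome, the fall in APOE4 covered all 8 listed proteins around the exit of the peptide tunnel, where nascent chains and their chaperones meet. These are Rpl17, Rpl19, Rpl22, Rpl23a, Rpl26, Rpl31, Rpl35 and Rpl39, with a median log2 fold change of -0.22. Beside them, 52 of all 86 members and 10.2% of all genes fell. In APOE2 against APOE3 1 of the 8 fell, beside 17 of all 86 members and 3.05% of all genes. In APOE4D against APOE3 6 of the 8 fell, beside 34 of all 86 members and 4.49% of all genes. The calls of Rpl22, Rpl26 and Rpl35 were lost with either length trend removed, and that of Rpl19 with the coding length trend removed. Whether position matters was not tested. Rpl39 measured 34.6, 35.5, 40.4, 35.6 and 32.8 CPM in APOE4, against 44.7, 42.8, 49.7, 49 and 43.6 CPM in APOE3, with no overlap. In the head of the small subunit 10 of 13 fell, and at the entry and exit of the mRNA channel 6 of 7, beside 23 of all 35 small subunit genes. The 2 lists share members such as Rps3 and Rps28. The stalk recruits elongation factors through Rplp0, Rplp1 and Rplp2. Rplp2 averaged 146 ± 6.64 CPM in APOE4, against 188 ± 20.9 CPM in APOE3 and fell by 0.37 on the log2 scale, Rplp0 fell by 0.15, and Rplp1 did not pass (log2 fold change -0.19, SE 0.076, edgeR adjusted p = 0.0903).

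Rpl5 and Rpl11 bind the 5S ribosomal RNA and, outside the ribosome, the ubiquitin ligase Mdm2. Their values parted. Rpl11 measured 82.3, 77.7, 85.1, 81.5 and 75.8 CPM in APOE4, against 97.4, 93.7, 115, 87 and 99.1 CPM in APOE3 (log2 fold change -0.30, edgeR adjusted p = 0.000513). Rpl5 measured 72.3, 71.9, 74.6, 69.3 and 69.1 CPM in APOE4, against 66.3, 64.7, 70.9, 69.7 and 70 CPM in APOE3, and its groups overlapped. Rps19, mutated in an inherited human anaemia, fell by 0.18 on the log2 scale. Rps14 fell by 0.22, with 315, 306, 306, 305 and 288 CPM in APOE4, against 320, 367, 405, 310 and 367 CPM in APOE3, where F61N at 310 CPM lay within the APOE4 range. Rps6, the substrate of the S6 kinases, and Rpsa, also known as the laminin receptor, did not pass (log2 fold changes -0.10 and -0.12, SE 0.051 and 0.056).

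Of 7 listed paralogs 5 were tested and none passed by edgeR in any comparison, while 52 of the 77 core members fell in APOE4. Under alternatives some were called in APOE4 against APOE3, Rps4l lower by DESeq2 and without the FH mice, Rps27l lower with no filter and with 1 surrogate variable, Rpl22l1 lower with either length trend removed, and all 3 of these also when certain single libraries were left out. Rpl22l1 averaged 72.8 ± 4.96 CPM in APOE4, against 77.4 ± 3.71 CPM in APOE3, and Rpl22 averaged 106 ± 4.21 CPM in APOE4 mice and 117 ± 4.99 CPM in APOE3 mice, of which Rpl22 passed (log2 fold change -0.14, edgeR adjusted p = 0.0144). Rps27 fell by 0.26 and Rps27l had a log2 fold change of -0.20 (SE 0.082, adjusted p = 0.0795). Rpl3l, known from striated muscle, had 0.549 ± 0.139 CPM in APOE4, against 0.374 ± 0.14 CPM in APOE3. It rested on 10 to 26 reads in a library and was called higher in APOE4 without F61N, alone or together with FH111 or F39N. Rpl7l1, at 42.1 ± 1.91 CPM in APOE4 mice and 40.6 ± 1.83 CPM in APOE3 mice, overlapped between the groups. So did Rps4x, at 187 ± 9.06 CPM in APOE4 mice and 197 ± 15.5 CPM in APOE3 mice.

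APOE2 against APOE3 asks about the allele that lowers risk. Here 17 of 86 members fell and 0 rose, beside 3.05% of all genes lower and 1.84% higher. They were 12 large and 5 small subunit genes, and the median log2 fold change was -0.11 over the members. At an unadjusted p under 0.05, 44 members were lower and 0 were higher, beside 10.1% and 9.71% of all genes. Of the 17, 16 were among the 52 that fell in APOE4, a comparison that uses the same APOE3 libraries, and the remaining gene was Rplp1. Groups did not overlap in 9 members, all lower in APOE2, beside 2.73% of all genes lower and 1.64% higher.

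The leading genes were Rpl36, Rpl35, Rpl13, Rps2 and Rps20. Rpl36 measured 112, 104, 105, 113 and 117 CPM in APOE2, against 152, 127, 144, 126 and 126 CPM in APOE3 (log2 fold change -0.29, SE 0.051, edgeR adjusted p = 0.00056). For Rps2 the values were 267, 246, 255, 252 and 271 CPM in APOE2, against 328, 277, 317, 295 and 296 CPM in APOE3, again without overlap. Rplp1 measured 323, 306, 346, 352 and 325 CPM in APOE2, against 388, 434, 495, 338 and 445 CPM in APOE3 (log2 fold change -0.35, SE 0.076, edgeR adjusted p = 0.0146), and only F61N reached into the APOE2 range. Rps15 and Rps21, among the leading genes in APOE4, had log2 fold changes of -0.15 and -0.14 and did not pass. The count of 17 rested on single libraries, since it was 35 without F61N, 11 without F39N, 9 without F10N, 10 without the APOE2 library FH111 and 9 without the APOE2 library F74M. It was 8 without the FH mice, 32 without F61N and FH111, and 7 with either length trend removed. The genes lower over all tested were 642 in the main fit, 460 without the FH mice and 962 without F61N and FH111. They were 418 and 419 with the trend over transcript or coding length removed.

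APOE2 against APOE4 compares the alleles of lowest and highest risk. A total of 6 members rose in APOE2 and 0 fell, beside 3.29% of all genes higher and 2.6% lower, with a median log2 fold change of 0.06 over the members. At an unadjusted p under 0.05, 30 members were higher and 2 were lower, beside 10.4% and 9.61% of all genes. Among the 6 that rose were Rps15, Rps21, Rpl10 and Rpl32. Rps15 measured 334, 320, 315, 340 and 348 CPM in APOE2, against 294, 294, 271, 273 and 259 CPM in APOE4 (log2 fold change 0.26, SE 0.056, edgeR adjusted p = 0.00704). Rps21 measured 242, 237, 252, 246 and 266 CPM in APOE2, against 212, 207, 220, 222 and 204 CPM in APOE4 (log2 fold change 0.23, SE 0.057). Both genes were apart in every mouse. Rpl10, whose protein completes the large subunit in the cytoplasm, averaged 176 ± 5.29 CPM in APOE2 and 158 ± 6.85 CPM in APOE4 (edgeR adjusted p = 0.0462). Its call was lost in 8 of the 10 fits that leave out 1 mouse, with adjusted p up to 0.165, and both Rpl10 and Rpl32 were lost by limma-voom and with library totals in place of TMM. Rps21 was lost without F42N or without FH78 (adjusted p up to 0.0618), and Rps15 was called in all 10. Groups did not overlap in 13 members with APOE2 higher, against 3.97% of all genes, and in 1, Rpl5, with APOE2 lower, against 3.65% of all genes, at 62.1 to 68.9 CPM in APOE2 and 69.1 to 74.6 CPM in APOE4. The number that rose was 20 when only these 10 libraries were fitted, 0 without the FH mice, and between 2 and 11 with any 1 library left out, with 2 without F42N or FH78, 3 without FH66 and 11 without F74M. Over all genes, 692 rose in the main fit, 989 with only these 10 libraries and 252 without the FH mice.

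APOE4D against APOE4 gave no call. By edgeR 0 of 86 members passed, as did 0% of all 21041 genes. At an unadjusted p under 0.05, 10 members were higher and 1 was lower, beside 5.28% and 5.62% of all genes. DESeq2 called 0 members, with 16 genes lower and 18 higher in all, and limma-voom called 0 genes. The median log2 fold change was 0.04 over the members. Groups did not overlap in 2 members, Rplp0 and Rpl32l, both higher in APOE4D, beside 1.52% of all genes higher and 1.25% lower. Rplp0 measured 139, 137, 145, 143 and 146 CPM in APOE4D, against 132, 136, 135, 129 and 129 CPM in APOE4, apart in every mouse, with a log2 fold change of 0.10 (SE 0.041) that did not pass (edgeR adjusted p = 0.376).

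APOE4D against APOE3 used the same APOE3 libraries as APOE4 against APOE3. A total of 34 members fell and 0 rose, beside 4.49% of all genes lower and 3.92% higher, and the median log2 fold change was -0.15. At an unadjusted p under 0.05, 51 members were lower and 0 were higher, beside 12% and 11.8% of all genes. All 34 were among the 52 that fell in APOE4, and they were 20 large and 14 small subunit genes. Rps2 measured 241, 222, 252, 261 and 255 CPM in APOE4D, against 328, 277, 317, 295 and 296 CPM in APOE3 (log2 fold change -0.30, SE 0.044, edgeR adjusted p = 5.04e-05). Rpl39 measured 31.6, 36.8, 32.8, 36 and 39.4 CPM in APOE4D, against 44.7, 42.8, 49.7, 49 and 43.6 CPM in APOE3 and fell by 0.38 on the log2 scale. Both were apart in every mouse, as were 15 members in all, all lower in APOE4D, beside 3.34% of all genes lower and 2.77% higher. The APOE4D library F12M was the lowest of all 20 in 34 of 86 members, and without it 22 fell. The count was 11 with 1 surrogate variable, 19 without the FH mice, and 20 and 17 with the trend over transcript or coding length removed. In the same order, 365, 306, 581 and 465 of all genes tested were lower, where 944 were in the main fit.

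Members varied together from mouse to mouse. Over 81 members above 1 CPM, the median pairwise correlation of within-group deviations across the 20 libraries was 0.6 (quartiles 0.41 and 0.76), a description of values that share libraries and scaling. A few genes varied on their own. Rps29 had, with Rps4l, the largest within-group SD, 0.211 on the log2 scale against a median of 0.088, and ranged over 53.5 to 79.1 CPM in APOE4D alone. Rpl29, named here after its values were seen, measured 45.9 and 43.1 CPM in the APOE2 mice F35J and F74M and 68.6, 72.5 and 68.4 CPM in the other 3 APOE2 mice, where all 15 mice of other groups had 62.5 CPM or more. Rps4l, a transcribed pseudogene in RefSeq, followed the others least (median r = -0.01).

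The 319 pseudogene symbols held 2475 to 3945 reads in a library in all, and 76 were tested, of which 3 fell and 2 rose in APOE4 against APOE3, smaller shares than the 10.2% lower and 10.8% higher of all genes, with a median log2 fold change of 0.06. Per 100 reads of members they had 0.561 to 0.603 reads in APOE2, 0.616 to 0.729 in APOE4D, 0.563 to 0.684 in APOE4 and 0.503 to 0.622 in APOE3. The 3 that fell were Rpl14-ps1, Rps10-ps1 and Rps15-ps2. Rpl14-ps1, at 6.65% of the level of Rpl14, fell with its parent (log2 fold changes -0.21 and -0.18). Rps15-ps2 also fell with its parent (-0.56 and -0.40), while Rps10, the parent of Rps10-ps1, did not pass. The 2 that rose were Rpl31-ps8 and Rpl7-ps7, and neither parent rose with them. Rpl31-ps8 had a log2 fold change of 0.30 where Rpl31 fell (-0.24). Rpl7-ps7 had one of 0.75 where Rpl7 did not pass (-0.05). No source used here states how reads that fit several places were counted, and a member and its copies cannot be fully separated.

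Of 7 ribosomal protein genes whose symbols the rule does not match, Fau, which encodes a fusion with a ubiquitin-like protein, fell in APOE4 against APOE3 (log2 fold change -0.33), and Rack1 did not pass (-0.05). Of 78 mitochondrial ribosomal protein genes, 25 fell and 1 rose in APOE4, beside 10.2% of all genes lower and 10.8% higher. Their median log2 fold change was -0.12. Mrpl54 had the smallest p, with a mean of 17.5 ± 0.81 CPM in APOE4 mice and 24.6 ± 3.32 CPM in APOE3 mice. In APOE2 against APOE3, 4 of the 78 fell and 1 rose, beside 3.05% of all genes lower and 1.84% higher. In APOE4D against APOE3, 16 fell and 2 rose, beside 4.49% of all genes lower and 3.92% higher.

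Lists of translation factors are given for APOE4 against APOE3, where 10.2% of all genes were lower and 10.8% higher. Of 38 initiation factors 4 fell, a share near that of all genes, among them Eif1b (85.8 ± 3.67 CPM in APOE4, against 107 ± 6.63 CPM in APOE3). Another 8 rose, among them Eif4g2 (648 ± 10.1 CPM in APOE4 mice and 536 ± 35.3 CPM in APOE3 mice). Of 14 elongation and termination factors 3 fell, among them Eef1b2, and 3 rose, Abce1, Etf1 and Gspt1, which release and recycle ribosomes. Of 20 other mRNAs known to carry a pyrimidine tract, a list that shares genes with the factor lists, 8 fell, including Tpt1 (log2 fold change -0.22) and Naca (-0.18), and 1 rose. Of 51 tested assembly factors 5 fell, led by Nhp2 (-0.41), and 3 rose, led by the nucleolar protein Ncl (0.22), both shares below those of all genes. Noncoding hosts of small nucleolar RNAs fell in 5 of 12, led by Snhg8 (-0.43). In the mTOR list 9 of 25 rose, among them Deptor, an inhibitor of mTOR (0.32), and Rictor (0.22), and 2 fell, Rps6kb2 and Eif4ebp1. Neither these lists nor the mitochondrial ribosomal protein genes were set beside genes of like coding length. Fold changes of other genes differed by that length, with medians of -0.14 up to 300 bases and 0.05 over 3000 bases. The part of length in these lists was not tested.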

How the data were processed

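The data are RNA-seq of 20 left hemi-brains (stranded poly(A) libraries, single reads). The deposited values are raw read counts by gene symbol, made by the authors with STAR 2.7.0 and featureCounts on GRCm38 per the submitters' processing notes. Strand setting and the handling of multimapping reads are not given in the sources used here. A normalized table and tables of the authors' own comparisons (fold changes and p-values) were not used. Genes above 0.1 CPM in over 40% of a fit's libraries were scaled by TMM and tested with edgeR 4.0.16 (robust quasi-likelihood test, R 4.3.3, Benjamini-Hochberg adjusted p under 0.05 over all genes). The first 3 comparisons used 15 libraries of APOE2, APOE4 and APOE3, and both APOE4D comparisons all 20. Printed CPM use the factors of the fit of all 20. Exact permutation tests of the named genes were run on log2(CPM + 0.5) but are not reported, because those genes were chosen on the same comparisons. Genes given per library were, of those past the threshold, the 10 of smallest p in APOE4 against APOE3 and the 5 in each other comparison, the 5 highest and 5 lowest tested by mean count, the 5 of largest and 5 of smallest p over the 3 genotypes, and listed members of known role, with up to 3 of smallest p from each other list. Genes named outside this to spell out a count of 5 or fewer, or singled out for their values, were chosen after their values were seen. Members and lists were chosen with earlier results of these data known. The code was tested on simulated data. Alternatives were other filters, scalings, tools (DESeq2 1.42.0, limma 3.58.1, sva 3.50.0), sample sets and removal of length and GC trends (loess span 0.3). Coding lengths are from GENCODE. Some genes that the rule for named genes gives are not reported here by name and are not drawn in the heat map, and they stay in every count.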

Additional observations from a re-analysis of the deposited data

Results flagged for a closer look

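In 3 of 180 checks of 5 mice each, 1 mouse stood apart from the other 4 of its group by more than the Dixon limit, and chance gives about 1 in 20. Rpl4 was 575 CPM in the APOE2 mouse F42N, where the nearest APOE2 mouse had 537 CPM. Rps4l was 22.2 CPM in the same mouse and 18.0 CPM in the nearest. Rps3a2 was 0.556 CPM in the APOE3 mouse F64M and 0.418 CPM in the nearest.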

How the results depend on the processing

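No named gene changed direction under any alternative run, nor did a median that could be judged. Medians were judged only if larger than 0.072 on the log2 scale, the SD of library medians within groups. Those of APOE2 against APOE4 (0.064) and APOE4D against APOE4 (0.035) were smaller, so the rule could not mark them as reversed. With 1 mouse left out they ranged over 0.045 to 0.088 and 0.018 to 0.065. Counts were judged by size alone. Fitting only the 2 groups compared gave 11 members lower in APOE2 against APOE3, 1 lower and 20 higher in APOE2 against APOE4, and 1 higher in APOE4D against APOE4. Without the FH mice 30 were lower in APOE4 against APOE3, 8 in APOE2 against APOE3 and 19 in APOE4D against APOE3, and 0 were higher in APOE2 against APOE4. Without F61N and FH111, 1 was higher in APOE4 against APOE3, 32 lower in APOE2 against APOE3 and 10 higher in APOE2 against APOE4. With 1 surrogate variable APOE4D against APOE3 had 11 lower and a median log2 fold change of -0.077. Once the transcript length and GC trend was removed, 31 were lower in APOE4 against APOE3 (median -0.101), 7 in APOE2 against APOE3, 1 in APOE2 against APOE4 and 20 in APOE4D against APOE3 (median -0.075). With coding length in its place these were 27 (median -0.089), 7, 1 and 17 (median -0.07). Over all 21022 genes, the number lower in APOE4 against APOE3 went from 2149 in the main fit to 1023 and 964 under these settings. Without F39N, 11 were lower in APOE2 against APOE3 and 11 higher in APOE2 against APOE4. Without F61N and F39N, 1 was higher in APOE4 against APOE3, and 1 was lower and 18 higher in APOE2 against APOE4. The coding length trend and both F39N settings were chosen after seeing the data. Without mitochondrially encoded genes the members held 1.33% of counts in APOE2, 1.3% in APOE4D, 1.25% in APOE4 and 1.44% in APOE3, with 1.2% to 1.3% in APOE4 and 1.31% to 1.6% in APOE3. The cause of these shifts was not tested.

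With 1 mouse left out, 45 to 60 members were lower and 0 to 1 higher in APOE4 against APOE3, 9 to 35 were lower in APOE2 against APOE3, 2 to 11 were higher in APOE2 against APOE4, and 22 to 47 were lower in APOE4D against APOE3. APOE4D against APOE4 gave 0 in each. No paired analysis was possible because the groups hold different mice and the labels name no pairs among them.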
